A study of Mus musculus with 4 samples.

Results

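The nuclear genes of mitochondrial complex I were examined in ribosome-bound RNA of the rostral pons. The 38 members are the gene rows whose symbols begin with Ndufa, Ndufb, Ndufc, Ndufs or Ndufv followed by a digit, together with Ndufab1, out of 31735 rows shared by all 4 libraries. Complex I is the NADH dehydrogenase of the inner mitochondrial membrane. It passes electrons from NADH to ubiquinone and pumps protons, and neurons rely on it for most of their ATP. The L-shaped enzyme has a matrix arm, where NADH is oxidised and quinone is reduced, and a membrane arm that pumps. Core subunits carry the cofactors or the pumps, and accessory subunits surround and stabilise them. The mitochondrially encoded core subunits were not analysed here, so every value concerns the nuclear-encoded part. Ndufa4 and Ndufa4l2 are in the set by their symbols, although the protein NDUFA4 is now assigned to complex IV.

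All libraries came from untreated adult control mice of the line Cbln2-TRAP NIDA172. In this line regulatory sequence of Cbln2 drives EGFP fused to the ribosomal protein L10a, and antibodies against EGFP pull down tagged polysomes from homogenised rostral pons. The series has 1 group of 4 immunopurified libraries, replicates 1 to 4, with 12731825 to 21140265 gene counts each. Total or unbound RNA was not analysed here, so enrichment over the tissue was not measured, and in such pulled-down bulk RNA fewer cells of a type and less RNA per cell cannot be told apart. Whether each replicate is a separate animal, a pool or a repeat of 1 extract is not labelled, so p-values reflect only how far these libraries differ, and that difference may be technical. Library numbers in the descriptions form a pair at 2469 and 2470 (replicates 3 and 4, here the second pair) and a pair at 1666 and 1667 (replicates 1 and 2, the first pair). The labels call neither pair a batch, and the description of replicate 4 carries the replicate label of replicate 3 while its title says 4.

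Sequence around the start of the genes was compared for words that regulators of respiration are known to bind. RefSeq start regions (GRCm38.p6, 250 bases before to 50 after the start) matched 33 of the 38 members. The word AAGATGGCG, the core bound by YY1, stood in 5 of 33 member regions (15.2%), against 3.50% of the 8030 regions of genes detected in all 4 libraries and 1.49% of all 27025 regions. Both strands were searched. In each of the 5 genes the word lay 23 to 36 bases after the start, and its ATG was the annotated start codon in 5 of 5. The shares over detected genes and over all regions were not restricted to regions that hold a start codon. The 30 bases around each word follow, 5′ to 3′, with the word in capitals, because this word had the largest excess over detected genes among the 5 words searched.
Ndufa9 (chr6:126849096-126849125, minus strand): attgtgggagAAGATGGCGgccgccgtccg
Ndufc1 (chr3:51408914-51408943, minus strand): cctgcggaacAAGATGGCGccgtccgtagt
Ndufs4 (chr13:114388045-114388074, minus strand): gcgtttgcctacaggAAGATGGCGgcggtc
Ndufs6 (chr13:73328433-73328462, minus strand): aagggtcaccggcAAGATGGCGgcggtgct
Ndufs7 (chr10:80249463-80249492, plus strand): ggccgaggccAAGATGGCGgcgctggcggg

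The palindromic core of the NRF1 site, CGCATGCG, stood in 2 member regions (6.06%, against 4.07% of detected genes). Both copies lie before the start. The 100 bases before the start of these 2 genes are shown with the word in capitals, because their CPM stood in opposite order between the library pairs. Neither gene passed the edgeR test described below (adjusted p = 0.193 for Ndufa11 and 0.237 for Ndufa8).
Ndufa11 (chr17:56717662-56717761, plus strand): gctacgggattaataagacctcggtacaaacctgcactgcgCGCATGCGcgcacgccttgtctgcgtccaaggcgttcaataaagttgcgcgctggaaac
Ndufa8 (chr2:36049339-36049438, minus strand): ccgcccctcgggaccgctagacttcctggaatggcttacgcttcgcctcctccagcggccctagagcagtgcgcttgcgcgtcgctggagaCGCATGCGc
The ETS word CCGGAAG was in 4 regions (12.1%, against 18.1% of detected genes) and the SP1 word GGGCGG in 15 (45.5%, against 66.7%). The word TCAAGGTCA of estrogen-related receptors was in none, against 0.237% of detected genes. It is too rare for its absence from 33 regions to be informative. A match describes letters in this window and not binding.

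Complex I subunit RNA was abundant and nearly complete. Of 38 members, 37 reached 1 CPM (counts per 1000000 gene counts of a library) in all 4 libraries, and 34 averaged between 25 and 150 CPM. The exceptions, chosen after their values were seen, were Ndufa4l2, Ndufb4, Ndufb7 and Ndufs5. Together the members held 2286 and 2181 CPM in replicates 3 and 4, against 2332 and 1721 CPM in replicates 1 and 2. With the row Rn45s, described below, left out of the totals, these sums were 3017 and 2405 CPM, against 2372 and 1749 CPM. The median member was at 53.7 and 52.4 CPM in the second pair and at 46.3 and 41.8 CPM in the first. Among the 10632 genes detected at that level in every library, the median was 27.6 and 32.8 CPM in the second pair and 30.2 and 29.7 CPM in the first. Per kilobase of transcript the median member exceeded the median of such genes by 2.47 ± 0.25 on the log2 scale (SD, n = 4), above 0 in 4 of 4 libraries. Member transcripts are short, with a median of 800.5 bases against 3076.5 bases over all genes tested below.

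**Figure D1:**
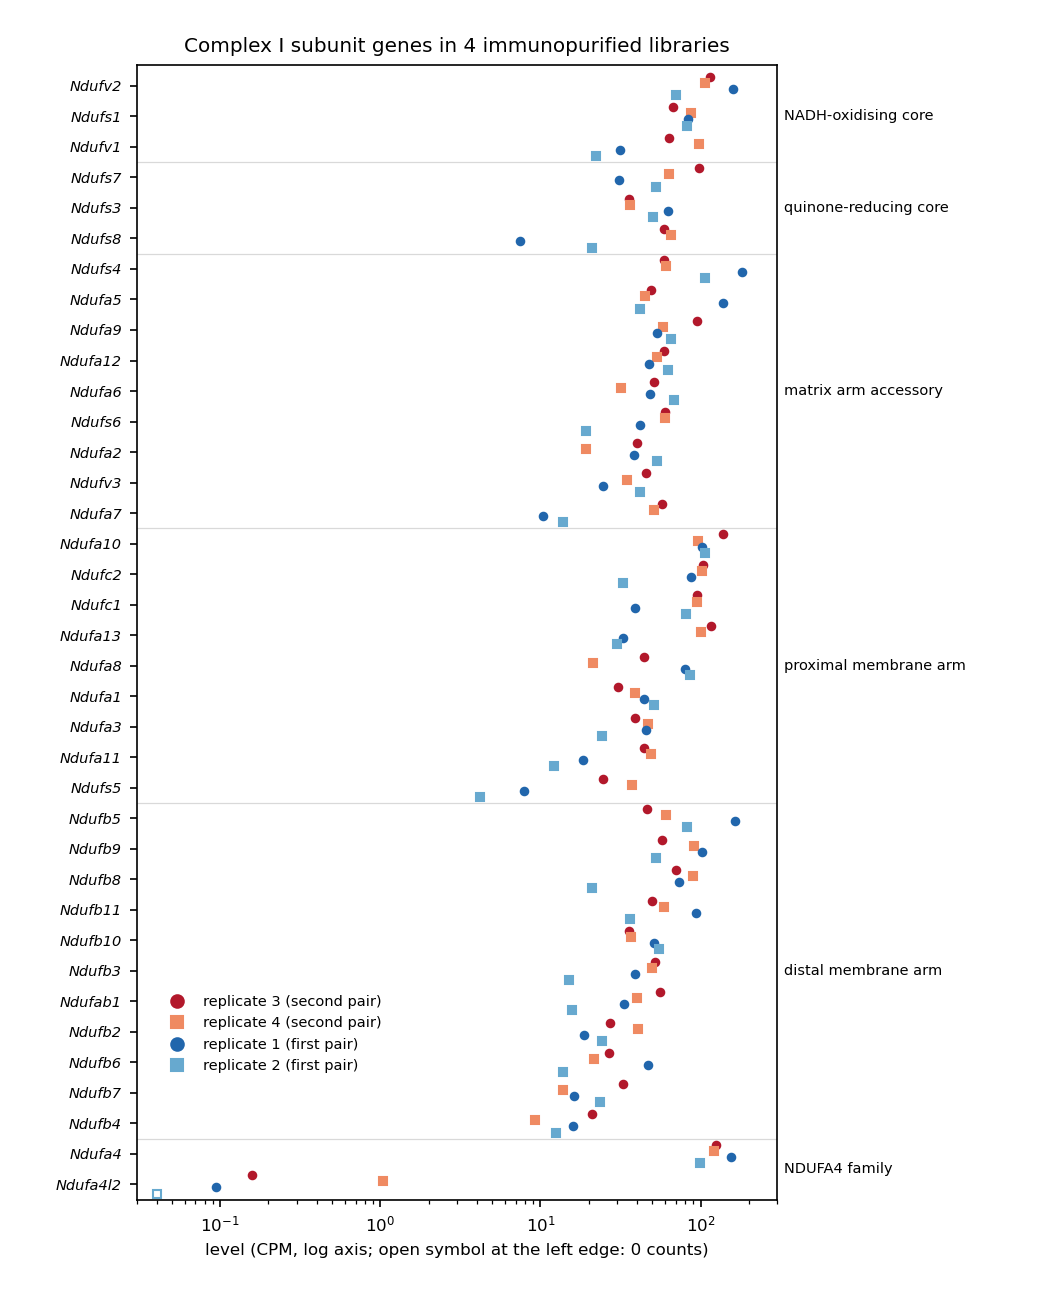
Level of 37 of the 38 genes in CPM (log axis) in every library, grouped by the part of complex I that the subunit belongs to and sorted by mean within a group. Red and orange symbols are replicates 3 and 4, dark and light blue symbols replicates 1 and 2. Ndufa4l2 stands alone at 1.04 CPM or less (open symbol, 0 counts), and Ndufs8, Ndufs5 and Ndufa7 show the widest spread.

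Among the core subunits at the NADH-oxidising tip, Ndufv1 was apart between the library pairs and Ndufv2 and Ndufs1 were not. Ndufv1, whose product binds NADH and flavin mononucleotide, was at 63.2 and 98.3 CPM in replicates 3 and 4, against 31.3 and 22.3 CPM in replicates 1 and 2. Both libraries of the second pair were above both of the first, which held for 23.7% of all genes tested below. Its partner Ndufv2, an iron-sulfur subunit, was at 115 and 107 CPM in the second pair, against 160 and 69.9 CPM in the first, and the pairs overlapped. Ndufs1, the largest core subunit with several iron-sulfur clusters, was at 67.7 and 87.6 CPM in the second pair, against 83.5 and 82.2 CPM in the first. With an SD of 0.16 on the log2 scale it was the steadiest of the 37 detected members, beside a median SD of 0.61 over these and 0.67 over all detected genes. Per kilobase Ndufv1 stood below Ndufv2 in 4 of 4 libraries (log2 ratio -1.57 ± 0.95, SD). The ratio was -1.19 and -0.46 in replicates 3 and 4, against -2.66 and -1.95 in replicates 1 and 2, so its size differed by pair.

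The quinone-reducing core subunits Ndufs3, Ndufs7 and Ndufs8 did not overlap between the pairs, and Ndufs3 stood in the opposite order to the others. Over all genes tested below, 23.7% were higher in the second pair without overlap and 23.8% lower. Ndufs3, a core subunit of this part, was at 35.6 and 36.0 CPM in the second pair, against 63.0 and 50.7 CPM in the first, without overlap. Ndufs7, which holds the last iron-sulfur cluster before quinone, was at 97.3 and 63.3 CPM in the second pair, against 30.7 and 52.3 CPM in the first. Ndufs8, which holds a pair of clusters, was at 58.8 and 65.6 CPM in the second pair, against 7.43 and 21.0 CPM in the first. Both genes were higher in each library of the second pair. Ndufs8 had the largest SD of log2 CPM of all members (1.43). Per kilobase Ndufs7 exceeded Ndufs8 in 4 of 4 libraries (log2 ratio 1.21 ± 0.86). The ratio was 0.94 and 0.17 in replicates 3 and 4, against 2.20 and 1.51 in replicates 1 and 2. In CPM without the division by length, Ndufs8 stood above Ndufs7 in replicate 4.

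In all 9 ratios between genes were computed, and p was adjusted over them; 7 are described. Flipping signs over 4 libraries gives 16 patterns, so the exact permutation test (two-sided) cannot go below p = 0.125, so no ratio could pass 0.05. The 4 of these that kept 1 direction in 4 of 4 libraries had an adjusted exact p of 0.225. The mean was beyond 2 SD for Ndufs1 against Sdha, the flavoprotein of complex II (log2 ratio -2.42 ± 0.17 per kilobase) and for Ndufa4 against Ndufa4l2. Ndufs1 against Ndufv1 was above 0 in 2 of 4 libraries (0.12 ± 0.98, adjusted exact p = 0.875) and differed in sign between the pairs. Its log2 ratio was -0.57 and -0.84 in replicates 3 and 4, against 0.72 and 1.17 in replicates 1 and 2.

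Among accessory subunits of the matrix arm the SD of log2 CPM ranged from 0.17 for Ndufa12 to 1.25 for Ndufa7. Ndufa12 was at 58.8 and 53.5 CPM in the second pair, against 47.6 and 62.3 CPM in the first. Ndufa7 was at 57.7 and 51.4 CPM in the second pair, against 10.4 and 13.8 CPM in the first, and within each pair the libraries lay close together. Ndufs4, an accessory subunit whose loss causes a mitochondrial encephalopathy in mice, stood in the opposite order, with 59.3 and 60.9 CPM in the second pair, against 182 and 106 CPM in the first. Ndufa5 was at 48.8 and 45.2 CPM in the second pair, against 138 and 41.8 CPM in the first, so that replicate 1 alone stood high. Ndufa2, Ndufa6, Ndufa9 and Ndufv3 overlapped between the pairs and averaged 36.7 to 67.7 CPM. Ndufs6, needed for the NADH-oxidising part to join, was at 59.9 and 60.3 CPM in the second pair, against 41.9 and 19.2 CPM in the first.

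In the proximal membrane arm the levels ranged from Ndufs5 to Ndufa10. Ndufa10 averaged 110 ± 18.7 CPM (SD, n = 4) and overlapped between the pairs. Ndufs5 was at 24.7 and 37.3 CPM in the second pair, against 7.95 and 4.18 CPM in the first. Ndufa13, also known as GRIM-19, was at 116 and 100.5 CPM in the second pair, against 32.5 and 30.1 CPM in the first, so that libraries agreed within a pair and differed between pairs. Ndufa11 was at 44.5 and 49.2 CPM in the second pair, against 18.4 and 12.1 CPM in the first. Ndufa8 was at 44.1 and 21.3 CPM in the second pair, against 80.2 and 86.1 CPM in the first, the opposite order to Ndufa11. Ndufa1, on the X chromosome, was at 30.4 and 38.7 CPM in the second pair, against 44.6 and 51.1 CPM in the first, without overlap, and Ndufa3 overlapped at a mean of 38.9 ± 10.5 CPM. Ndufc1 and Ndufc2, small membrane subunits, were together with Ndufa4 the 3 members of highest level per kilobase, at 246 ± 83.7 and 119 ± 48.8 CPM per kb, beside 205 ± 37.2 CPM per kb for Ndufa4 (SD, n = 4). By the union of all exons the 3 highest were Ndufc2, Ndufa1 and Ndufa4, and Ndufc1 ranked 11 at 51.8 CPM per kb. Ndufc1 was at 94.9 and 94.5 CPM in the second pair, against 39.0 and 81.3 CPM in the first. Ndufc2 was at 104 and 102 CPM in the second pair, against 87.0 and 32.7 CPM in the first. Their log2 ratio per kilobase was 1.09 ± 1.01, above 0 in 3 of 4 libraries, and it rests on a transcript of 315 bases for Ndufc1; without the division by length it was -0.02.

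Of the distal membrane arm, 11 members were measured, and Ndufb1-ps was not analysed here. Ndufb5 was at 45.9 and 60.9 CPM in the second pair, against 165 and 81.8 CPM in the first. Ndufab1, the mitochondrial acyl carrier protein that is bound to complex I and also serves fatty acid synthesis, was at 55.5 and 40.2 CPM in the second pair, against 33.4 and 15.7 CPM in the first. It and Ndufb4 were the lowest detected members per kilobase, at 10.4 ± 4.75 and 15.2 ± 5.24 CPM per kb (SD, n = 4). By the union of all exons Ndufb7 and Ndufb2 were lowest, at 4.77 and 4.91 CPM per kb. Ndufb4 was at 21.1 and 9.27 CPM in the second pair, and both libraries of the first lay between these values. The other 8 averaged 21.6 to 76.0 CPM. Relative to the median of all members, on the log2 scale of CPM per kb, the median of the distal arm was at -0.26 ± 0.12 (SD, n = 4) and below 0 in 4 of 4 libraries. The proximal arm was at 0.34 ± 0.26, above 0 in 4 of 4, and the matrix arm accessory subunits at 0.12 ± 0.28. The quinone-reducing core lay at -0.07 ± 0.11 and the NADH-oxidising core at -0.59 ± 0.35. Without the division by length the last of these was 0.70, so the order of the groups follows the transcript length used.

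The paralogs Ndufa4 and Ndufa4l2 were at opposite ends. Ndufa4 had the highest mean of all members, with 124 and 121 CPM in replicates 3 and 4, against 155 and 99.8 CPM in replicates 1 and 2. Ndufa4l2, known as a hypoxia-induced gene and a marker of brain pericytes, was at 0.157 and 1.04 CPM in the second pair, against 0.0946 and 0 CPM in the first. These are 2 and 16 counts against 2 and 0 counts, and a count of 0 allows up to 3 counts, or 0.193 CPM in replicate 2. The log2 ratio of Ndufa4 to Ndufa4l2 was 8.07 ± 0.78 per kilobase with a pseudocount of 0.5 and 9.47 with 0.1, so its size depends on the pseudocount. Of 10 endothelial and mural genes, 6 reached 1 CPM in all 4 libraries, with a summed level of 217 to 221 CPM in the second pair and 234 to 301 CPM in the first. Ndufa4 against Cox4i1, a subunit of complex IV, had a log2 ratio of 0.50 ± 0.92, above 0 in 2 of 4 libraries.

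The set was then placed beside the other respiratory chain complexes. The subunit genes of complexes IV and V stood above those of complex I per kilobase, by 1.31 ± 0.28 and 1.24 ± 0.15 on the log2 scale between list medians, in 4 of 4 libraries each (SD, n = 4). Complex II differed by less than its spread (0.04 ± 0.47, above 0 in 1 of 4), and complex III was lower in 4 of 4 libraries but within its spread (-0.34 ± 0.49). The lists hold different genes, and no test was made of these list medians. Assembly factors of complex I, which build the enzyme but are not part of it, stood below the subunits in 4 of 4 libraries, with a difference of -2.54 ± 0.08. Of 14 assembly factors measured, 13 reached 1 CPM in all 4 libraries. None of the 14 passed the edgeR test below. The most abundant, Ndufaf4, was at 30.3 and 35.9 CPM in the second pair, against 71.8 and 71.7 CPM in the first, without overlap (edgeR adjusted p = 0.264).

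**Figure D2:**
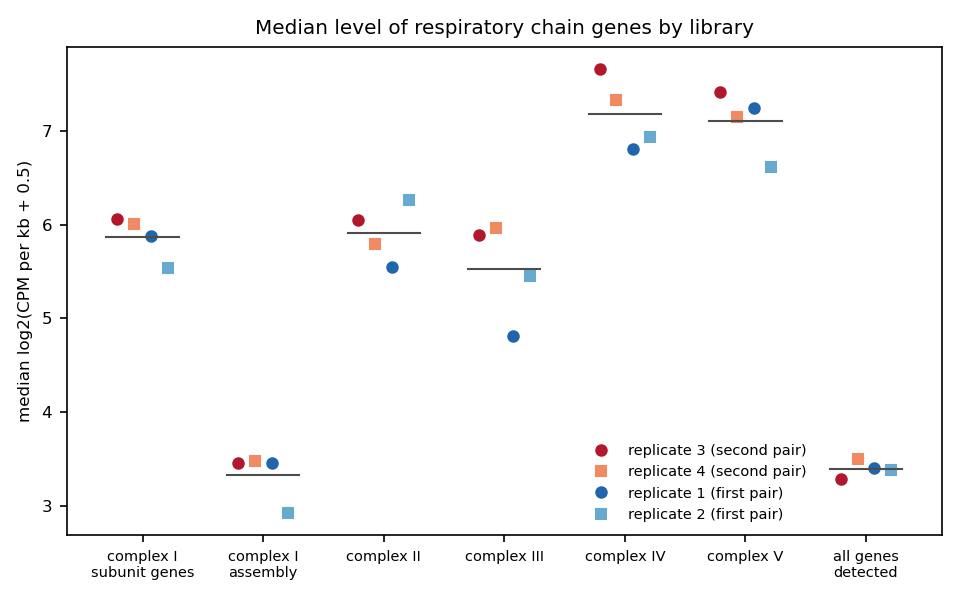
Median log2(CPM per kb + 0.5) of the complex I subunit genes, its assembly factors, complexes II to V and all genes detected in all 4 libraries, with 1 point per library and a line at the mean of 4. Complexes IV and V lie above complex I in every library, and the assembly factors lie at the level of the median detected gene.

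Replicates 3 and 4 were compared with replicates 1 and 2 by edgeR's quasi-likelihood test over 13905 genes. The comparison is among replicates of a single untreated group. No member passed an adjusted p of 0.05 among 37 tested, beside 1.27% of all genes tested (0.712% higher and 0.554% lower in the second pair). The smallest adjusted p was 0.0675, for Ndufa13. At an unadjusted edgeR p under 0.05 there were 6 members higher (Ndufa7, Ndufa11, Ndufa13, Ndufs5, Ndufs8 and Ndufv1) and 3 lower (Ndufa8, Ndufb5 and Ndufs4), beside 8.22% and 8.57% of all genes tested. DESeq2 called 5 higher and 1 lower at an adjusted p of 0.05, beside 9.49% of all genes tested by it (4.99% higher and 4.50% lower). These were Ndufa7, Ndufa13, Ndufs5, Ndufs8 and Ndufv1 on the higher side, and Ndufs4 (DESeq2 adjusted p = 0.0485) on the lower. With edgeR, Ndufa13 passed without replicate 1 (1 of 38 members, beside 4.60% of all genes) and Ndufa7 and Ndufs8 without replicate 2 (2 of 38, beside 4.29%), each leaving 1 library on that side. No member passed without replicate 3 (beside 2.74%) or replicate 4 (beside 2.59%).

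The fitted changes ran both ways. Of the 37 members tested, 22 had a positive and 15 a negative log2 change, with a median of 0.21, beside -0.03 over all genes tested. Ndufs5 had a log2 change of 2.36 (SE 0.79, edgeR adjusted p = 0.153), Ndufa7 of 2.20 (SE 0.60, adjusted p = 0.0874) and Ndufs8 of 2.13 (SE 0.64, adjusted p = 0.114). Ndufa13 was at 1.82 (SE 0.45), Ndufa11 at 1.63 (SE 0.61) and Ndufv1 at 1.59 (SE 0.50). On the negative side, Ndufa8 was at -1.29 (SE 0.53), Ndufs4 at -1.24 (SE 0.41) and Ndufb5 at -1.20 (SE 0.45). A log2 change beyond 1 in either direction was found in 29.7% of members tested and in 40.6% of all genes tested. Members of opposite sign occurred in each of the 5 groups of subunits with more than 1 tested gene. The proximal membrane arm had 7 of 9 positive (median 0.67) and the matrix arm accessory subunits 5 of 9 (median 0.05). The distal membrane arm had 6 of 11 (median 0.16) and the NADH-oxidising core 1 of 3.

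The CPM of the pairs did not overlap in 19 of 37 members. There were 13 with both libraries of the second pair higher, or 35.1% beside 23.7% of all genes tested, and 6 with both lower (Ndufa1, Ndufa8, Ndufb5, Ndufb10, Ndufs3 and Ndufs4), or 16.2% beside 23.8%. The row Rn45s, named for the ribosomal RNA precursor, took 24.2% and 9.29% of the gene counts in replicates 3 and 4, against 1.68% and 1.61% in replicates 1 and 2, and lowers the CPM of every other gene there. With that row left out of the totals, 16 members were higher without overlap (beside 29.9% of all genes tested) and 6 lower (beside 17.5%). Libraries also differed within a pair. Replicate 1 exceeded replicate 2 more than 2-fold, relative to the median gene, for 9 members, among them Ndufa5, Ndufb8, Ndufc2 and Ndufv2, beside 19.7% of all genes tested, and the reverse held for Ndufc1 and Ndufs8 (beside 18.2%). Replicate 3 exceeded replicate 4 by as much for Ndufa2, Ndufa8, Ndufb4 and Ndufb7 (beside 15.3%), and the reverse held for 0 members (beside 18.3%).

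**Figure D3:**
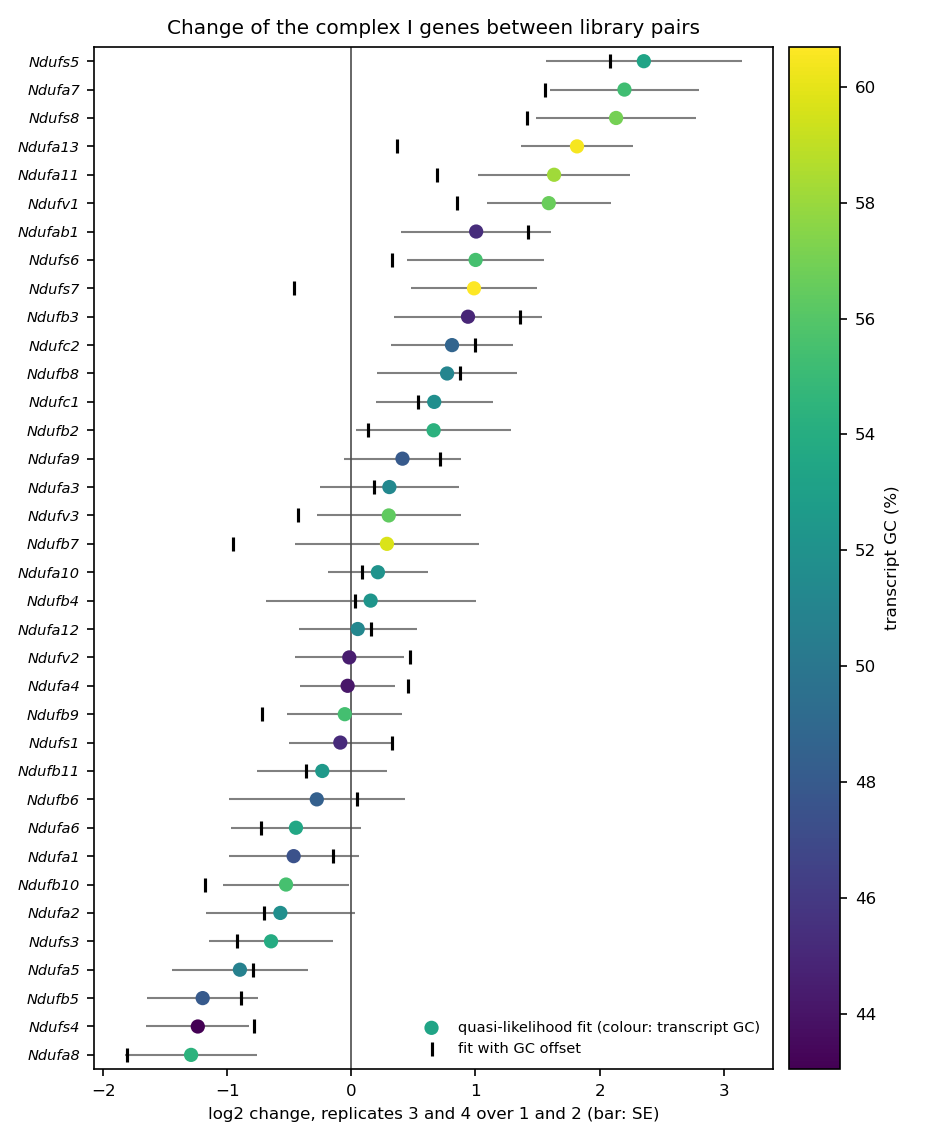
Log2 change of 36 of the 37 tested members between replicates 3 and 4 and replicates 1 and 2, with its SE, coloured by the GC content of the transcript, and (black ticks) the same change when a GC offset is added. The changes run from -1.29 for Ndufa8 to 2.36 for Ndufs5, and the GC-rich Ndufa13 and Ndufs7 move most towards 0 or past it with the offset.

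Transcript GC content moved with these changes. The tested genes were cut into 5 equal bins of GC. All 7 members in the top bin (over 56.0%), namely Ndufa11, Ndufa13, Ndufb7, Ndufs7, Ndufs8, Ndufv1 and Ndufv3, had a positive log2 change, with a median of 1.59, beside a median of 0.97 over the 2485 tested genes in that bin. In the lowest bin (up to 44.6%), 0 of 3 members were positive, with a median of -0.03, beside -0.44 over all genes there. Across the 37 members the Pearson correlation of the log2 change with GC was 0.41 (Spearman 0.37), and across the 12424 tested genes with a transcript it was 0.34 (0.40). Genes of 1 library share its depth and handling and are not independent, so these values are descriptions. Over all genes the median log2 change was 0.45 in the 632 genes under 1000 bases and -0.15 in those of 4000 bases or more. The correlation of the change with length was -0.01 (Pearson) and -0.10 (Spearman) among the members, and -0.07 and -0.12 over all tested genes.

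A fit with an offset for transcript GC in each library was added after the data were seen. It left a Pearson correlation of -0.16 with GC among members and called 0 of 37, with 45 genes called in all (0.324% of genes tested) and 7 members at an unadjusted edgeR p under 0.05, beside 12.7% of all genes tested. In that fit Ndufa13 had a log2 change of 0.37 and Ndufs7 of -0.47, while Ndufs5, Ndufa7 and Ndufs8 were at 2.08, 1.56 and 1.42 and Ndufa8 at -1.81. Of the 7 GC-rich members, 4 were positive, with a median of 0.37.

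**Figure D4:**
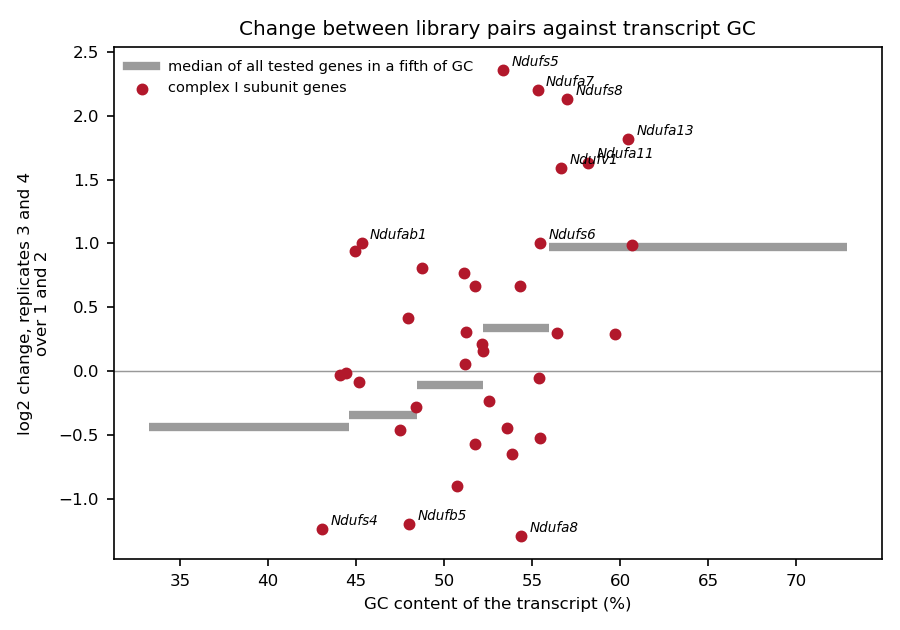
Log2 change between the library pairs against the GC content of the transcript (%), for 36 of the 37 tested members (red points) and as the median of all tested genes in each of 5 bins of GC (grey bars). The medians are -0.44 in the lowest bin and 0.97 in the highest, and the members with changes above 1.5 have 53.3% to 60.4% GC.

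Other groups of genes differed between the pairs beside the complex I genes. In the second pair 3 of 16 genes of complex V rose, the ATP synthase subunit genes Atp5g1 (log2 change 2.59, SE 0.41, edgeR adjusted p = 0.0168), Atp5d (1.90, SE 0.41, adjusted p = 0.0447) and Atp5g2, the last at 14.2 and 17.9 CPM in the second pair, against 0.142 and 0.0643 CPM in the first. Atp5d was not called without replicate 3 (edgeR adjusted p = 0.157). DESeq2 called 4 genes of complex V higher and 2 lower, beside 4.99% and 4.50% of all genes tested by it. By edgeR the shares over all genes tested were 0.712% higher and 0.554% lower. The lower ones were Atp5g3 (edgeR log2 change -1.33, DESeq2 adjusted p = 0.0134) and Atp5c1 (edgeR log2 change -1.07, DESeq2 adjusted p = 0.0219). Complexes II, III and IV had 0 calls among 4, 9 and 12 genes by edgeR, with medians of -0.09, 0.80 and 0.65, and DESeq2 called 2 of complex III and 3 of complex IV, all higher. Among 11 regulators of respiratory genes Ppargc1a, which encodes the coactivator PGC-1α, fell, with 169 and 282 CPM in replicates 3 and 4, against 612 and 696 CPM in replicates 1 and 2 (log2 change -1.55, SE 0.33, edgeR adjusted p = 0.0413). DESeq2 called Ppargc1a and Gabpb1 lower. With the GC offset Ppargc1a, Atp5d and Atp5g2 were not called (adjusted p = 0.177, 0.716 and 0.0975). Yy1 and Nrf1, whose words are shown above, averaged 20.4 and 12.3 CPM (chosen after their values were seen) and did not pass the test. Of 24 large ribosomal protein genes, which also have short transcripts, 3 rose by edgeR (Rpl28, Rplp1 and Rplp2) and 11 by DESeq2, and the list's median log2 change was 1.15.

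Of the cell type marker lists, that of cerebellar granule cells had the lowest median log2 change between the pairs, at -2.09. Of its 8 genes, 2 fell by edgeR (Cbln3 and Neurod1) and 7 by DESeq2, beside 0.554% and 4.50% of all genes tested. Their summed level was 189 to 320 CPM in the second pair and 639 to 1539 CPM in the first. The 12 neuronal genes, each at 1 CPM or more in every library, summed to 12549 to 13789 CPM in the second pair and 23864 to 26777 CPM in the first, with 1 gene higher (Tubb3) and 1 lower (Nefm) by edgeR and 2 each way by DESeq2. Most of that difference in the sum was in Snap25, at 8131 and 6936 CPM in the second pair, against 18577 and 15908 CPM in the first. The median log2 change of the 12 genes was -0.19, and their median log2 level per kb was 6.98 and 7.46 in the second pair, against 7.04 and 7.12 in the first. The 10 astrocyte genes summed to 958 to 3203 CPM in the second pair and 2597 to 3076 CPM in the first, and the 10 oligodendrocyte genes to 455 to 2525 CPM in the second pair and 1737 to 1867 CPM in the first, with replicate 3 lowest for both and the pairs overlapping. The 10 microglia genes summed to 10.6 to 55.8 CPM in the second pair and 9.26 to 32.1 CPM in the first, with overlap, and 2 of 10 were at 1 CPM in all 4 libraries. These 3 lists had 0 calls by edgeR, and DESeq2 called 2 astrocyte genes lower. The 10 endothelial and mural genes had 0 calls by edgeR and by DESeq2. Their median log2 change was -0.67, and single genes ran from -2.29 to 1.87. Their sum, given above, was also lower in the second pair without overlap. All these list sums keep Rn45s in the totals, which lowers CPM in the second pair. They are not given here without that row, so this small separation may come from the totals. No marker on these lists was at 0 counts in all 4 libraries. Their part in the changes of the complex I genes was not tested.

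Some members share sequence with other annotated genes. A pseudogene of at least 95% identity over at least 100 bases was annotated for 8 members, Ndufa12, Ndufab1, Ndufb3, Ndufb4, Ndufb11, Ndufs3, Ndufs5 and Ndufs6, and their counts are uncertain. Exons of 17 members overlap exons of another gene, 15 of them on the other strand, as with Ndufa13 and Tssk6, and whether counting used strand is not given in the sources used here. Among the members with the largest changes, Ndufs5 has such a pseudogene, whereas Ndufa7 and Ndufs8 have neither a copy nor an overlap in the annotation.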

How the data were processed

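For each of 4 immunopurified libraries the authors deposited unnormalized read counts by gene symbol. The submitters' processing notes name STAR 2.0.0e, HTSeq and the build mm10, while the annotation and strand setting are not given in the sources used here. The 5 HTSeq summary rows and the row named unknown (0 counts) were kept out: reads outside any feature were 24.0% to 30.1% of a library, and reads with several alignments 28.6% to 37.2%. CPM used all remaining gene rows of a library; tests used the 31735 rows shared by all 4. Lengths and GC content came from GENCODE M21 coding transcripts linked to RefSeq (median length), and log2 levels had a pseudocount of 0.5 CPM per kb. Positions are GRCm38, the assembly of mm10. The pairs were compared with the quasi-likelihood test of edgeR 4.0.16, after TMM scaling and the filterByExpr filter, with Benjamini-Hochberg adjustment over all genes, and with DESeq2 1.42.0 as an alternative. SEs were derived from the F statistic. Counting floors cover counting error only, since reads are not independent molecules. The script was tested on simulated data. For the edgeR fit these data held no GC or Rn45s difference between the pairs. How such differences act on the calls was not tested there. The values of 1 member are not reported here. Members and lists were chosen with earlier results of these data known. By rule, per-library values were given for the core subunits, called members, the 3 highest and 3 lowest by CPM per kb, members at 0 counts in a library and the 3 largest SDs of log2 CPM, and, of other lists, called genes and up to 4 of highest mean CPM. Other members with per-library values were chosen after their values were seen, as were the RefSeq-linked lengths, the union of exons and the GC offset (median deviation in 20 bins of GC per library).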

Additional observations from a re-analysis of the deposited data

Results flagged for a closer look

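In 2 of 38 members a library stood apart from the others by Dixon's criterion for 4 values, and chance gives about 1 such flag in 20 groups. Ndufa5 was at 138 CPM in replicate 1, against 48.8, 45.2 and 41.8 CPM in replicates 3, 4 and 2, a gap of 0.927 of the whole range. Ndufa4l2 was at 1.04 CPM in replicate 4, against 0.157, 0.0946 and 0 CPM in replicates 3, 1 and 2, a gap of 0.8496 of the range, on 16 counts against 2, 2 and 0.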

How the results depend on the processing

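No paired analysis was possible because all libraries belong to 1 group and carry the replicate numbers 1 to 4 once each. The count of members called was 0 with the quasi-likelihood test, 6 with DESeq2, 3 with no filter beyond 1 count (Ndufa7, Ndufa13 and Ndufs8), 2 with a filter of 1 CPM in all 4 libraries (Ndufa7 and Ndufa13), and 0 to 2 when a replicate was left out (Ndufa13 without replicate 1, Ndufa7 and Ndufs8 without replicate 2). Over all genes the calls numbered 176, 1268 with DESeq2, 875 with no filter, 528 with the filter of 1 CPM, 45 with the GC offset and 389 to 699 (of 15016 to 15414 tested) with a replicate left out. With no filter the 875 calls were among 18346 genes tested, beside 3 of 38 members. With the filter of 1 CPM the 528 calls were among 10643 genes tested, beside 2 of 37 members. Whether members were called more often than other genes was not tested. Leaving out a replicate leaves 1 library on a side, which is then assumed to vary like the pair. The members' median log2 change was -0.087 to 0.48 with a replicate left out, negative without replicate 3, beside -0.11 over all genes there. The sign of small changes turned: Ndufv2 was at 0.021 with the filter of 1 CPM, 0.0039 without the 20 most abundant genes, 0.47 with the GC offset and -0.47 to 0.66 with a replicate left out. With the GC offset Ndufs1 was at 0.32 and Ndufs7 at -0.47.

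Lengths set the levels. The members' median log2 level was 5.87, 5.61 without division by length and 4.996 with the union of all exons. Without length the NADH-oxidising core lay at 0.70 from the median member, the quinone-reducing core at 0.25 and the proximal arm at -0.19. The NDUFA4 family, a median of 2 genes, lay at -2.94 and -1.87 with pseudocounts of 0.1 and 1. Without length, assembly factors and complexes II, III and IV lay at -1.39, 0.82, 0.31 and 0.94 from complex I; with union exons, assembly factors and complexes II, IV and V lay at -2.27, 0.53, 0.91 and 0.68. The log2 ratio of Ndufc1 to Ndufc2 was -0.020 without length and -1.0001 with union exons. That of Ndufs1 to Ndufv1 was -0.79 with union exons and -0.23 to 0.44 with a replicate left out. The causes were not tested.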
